A study of Mus musculus with 18 samples.

Results

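The IL-1 family and epithelial alarmin cytokine genes were followed in sorted mouse skin cells after a contact sensitizer was applied. The set held 9 genes, Il1a, Il1b, Il18, Il33, Tslp, Il1rn, Il1r1, Il1rap and Il1r2, chosen by gene symbol, and all 9 were among the 13816 genes in the authors' deposited table. Cells came from dorsal skin, either control skin at day 0 or skin at day 2 of DPCP (diphenylcyclopropenone), and were sorted by flow cytometry into populations labelled EpSCs, Germ and Bulge. Each of the 6 groups, Control EpSCs, Control Germ, Control Bulge, DPCP EpSCs, DPCP Germ and DPCP Bulge, had 3 samples. The labels gave no strain, age, sex or genotype, did not spell out EpSCs and named no sorting marker. Nor did they tie samples to animals, and if replicates share an animal the p-values cover technical spread alone. All control samples were day 0 and all DPCP samples day 2, so an effect of DPCP and an effect of the day cannot be told apart.

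Interleukin-1 alpha and interleukin-1 beta signal through the receptor encoded by Il1r1, which pairs with the accessory chain encoded by Il1rap and passes the signal through MyD88 to NF-kB. The product of Il1rn occupies the receptor without signalling, and the product of Il1r2 binds the cytokines as a decoy. Interleukin-18 and interleukin-33 belong to the same family and have primary receptors of their own, and interleukin-33 shares the accessory chain. TSLP is an alarmin from outside the family, made by epithelia and read by a receptor that contains the interleukin-7 receptor chain. Keratinocytes hold interleukin-1 alpha and interleukin-33 ready and release them when damaged.

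The stretches just upstream of Il1a, Il1b and Il33 are shown because these genes gave the highest log2 fold changes of the set and a fall called in both EpSCs and Bulge. They are the 250 bases before each RefSeq start (GRCm38.p6), 5′ to 3′ on the gene's strand, with matches on either strand to TATAAA (the TATA box), to the NF-kB consensus or to the AP-1 motif TGANTCA in capitals. The Il1a stretch lies at chr2:129309973-129310222 on the minus strand, the Il1b stretch at chr2:129371140-129371389 on the minus strand, and the Il33 stretches at chr19:29924863-29925112 and chr19:29945540-29945789 on the plus strand.
Il1a: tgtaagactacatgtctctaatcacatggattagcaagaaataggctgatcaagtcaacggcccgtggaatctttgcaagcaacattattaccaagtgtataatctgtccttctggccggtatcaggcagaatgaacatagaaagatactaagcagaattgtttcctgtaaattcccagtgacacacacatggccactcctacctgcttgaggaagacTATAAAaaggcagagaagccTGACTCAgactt
Il1b: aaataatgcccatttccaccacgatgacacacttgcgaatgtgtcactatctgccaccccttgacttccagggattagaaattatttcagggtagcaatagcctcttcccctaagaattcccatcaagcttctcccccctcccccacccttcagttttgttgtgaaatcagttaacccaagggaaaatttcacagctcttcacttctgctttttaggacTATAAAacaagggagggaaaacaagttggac
Il33, upstream start: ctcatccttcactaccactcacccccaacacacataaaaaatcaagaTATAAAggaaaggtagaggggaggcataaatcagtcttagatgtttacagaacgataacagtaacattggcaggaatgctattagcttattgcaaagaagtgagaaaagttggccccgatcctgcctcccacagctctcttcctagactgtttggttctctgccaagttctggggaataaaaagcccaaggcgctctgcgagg
Il33, downstream start: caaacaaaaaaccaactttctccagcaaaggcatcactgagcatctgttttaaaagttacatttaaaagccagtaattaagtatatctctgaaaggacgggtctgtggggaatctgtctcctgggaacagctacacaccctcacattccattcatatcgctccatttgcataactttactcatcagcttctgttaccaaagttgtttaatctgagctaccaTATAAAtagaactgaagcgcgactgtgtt
TATAAA ended 27 bases before the Il1a start, 26 before the Il1b start and 24 before the downstream Il33 start, and 198 before the upstream Il33 start. It occurred in 12.4% of 32851 promoters of this length. The AP-1 letters occurred in the Il1a stretch, 12 to 6 bases before the start, and in 6.75% of all promoters. The NF-kB consensus matched none of these 4 stretches and 3.9% of all promoters. Of the other members searched, Il1rn had an AP-1 match, Il18 a TATAAA match and Il1r1 an NF-kB match. No matches overlapped. A match is a description of letters and not of a bound site, and the values per gene do not show which Il33 start was used.

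At day 2 of DPCP, Bulge had higher Il1a and Il1rap and lower Il33 and Tslp, EpSCs had lower Il33, Il1rn and Il1r2, and no member was called in Germ. A gene was called at an adjusted p under 0.05 in the authors' limma test. Values per sample were not used here, since the library columns matched no label. In their place, each log2 fold change (DPCP minus control) of the authors' deposited table is given with a standard error rebuilt from its p-value, or a 95% interval from that error, and depth is unknown. In Bulge, 4 of 9 members were called, 2 higher and 2 lower, beside 10.3% of all genes (5.12% higher and 5.16% lower). In EpSCs, 3 of 9 were called, all lower, beside 39.9% of all genes (19.9% higher and 20.0% lower), so the EpSCs share of members was near the background. In Germ, 0 of 9 were called by limma beside 1.06% of all genes (0.847% higher and 0.21% lower). Before adjustment, 6 of 9 members had p under 0.05 in Bulge, 4 of 9 in EpSCs and 1 of 9 in Germ, beside 29.2%, 48.9% and 25.7% of all genes. The median log2 fold change of the members was 0.49 in Bulge, −0.047 in EpSCs and 0.43 in Germ, beside −0.021, −0.0034 and 0.097 over all genes. In bulk RNA, fewer cells of a type and less RNA per cell cannot be told apart.

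**Figure D1:**
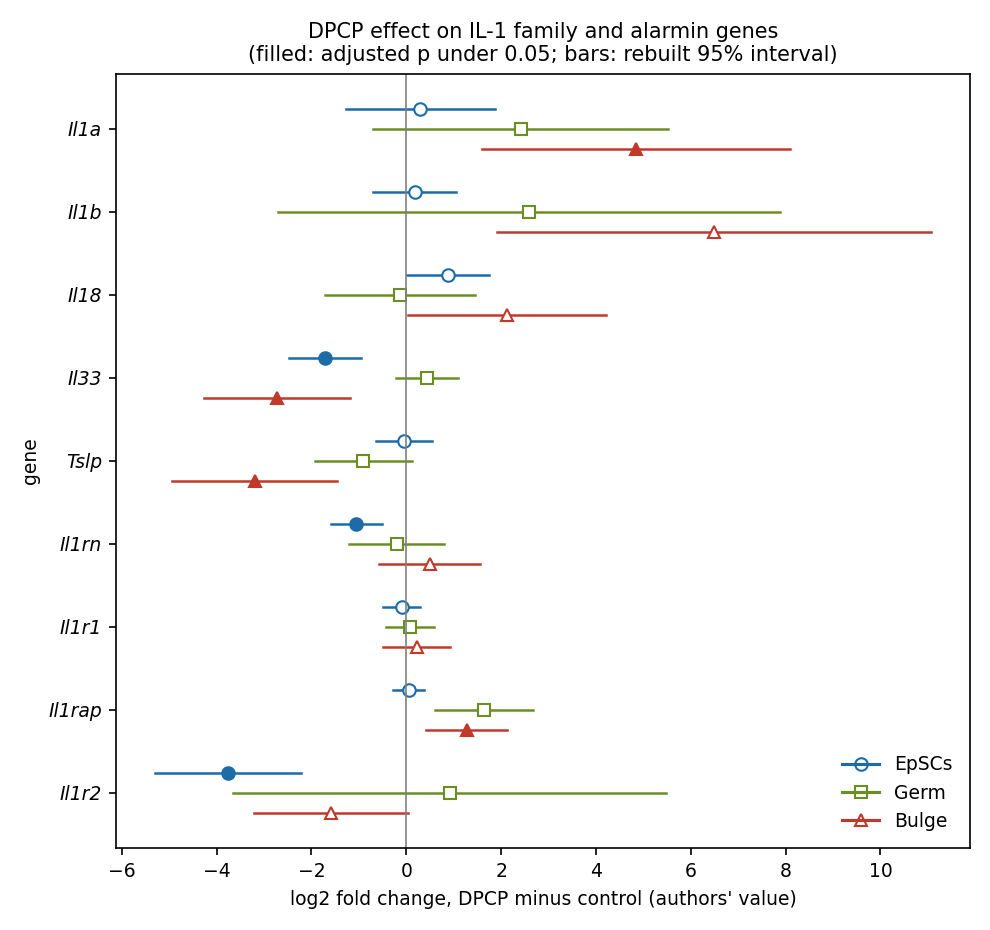
Log2 fold change (x axis, DPCP minus control, from the authors' deposited table) of the 9 genes (y axis) in EpSCs (circles), Germ (squares) and Bulge (triangles); filled symbols have an adjusted p under 0.05 and bars are 95% intervals rebuilt from the p-values. Il1a and Il1b lie far to the right in Bulge, at 4.85 and 6.49, with wide bars, and Il33 lies left of 0 in EpSCs and Bulge but not in Germ.

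Among the agonist ligands, Il1a, whose product is stored in keratinocytes and active as its precursor, rose in Bulge. The authors' deposited table gave 28.8-fold there (log2 fold change 4.85, standard error 1.66, adjusted p = 0.0406), and 55 of the 13816 genes had a larger log2 fold change. Its 95% interval ran from 3.02-fold to 274-fold, so the size of the rise was poorly fixed. In Germ the authors' deposited table had Il1a at 2.41 (standard error 1.59, adjusted p = 0.299), and in EpSCs at 0.30 (standard error 0.80, adjusted p = 0.785). All 3 values were above 0, with Bulge highest and EpSCs lowest.

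Il1b, whose product is activated by cleavage, for instance by caspase-1, had the largest log2 fold change of the members. In Bulge the authors' deposited table gave 6.49 (90.1-fold, standard error 2.33), with an adjusted p of 0.0511, just past the threshold for a call, and an unadjusted p of 0.00537. Only 25 of all genes had a larger log2 fold change in Bulge. For Germ the authors' deposited table had Il1b at 2.59 (standard error 2.70, adjusted p = 0.514) and for EpSCs at 0.18 (standard error 0.45, adjusted p = 0.764). The order of populations was that of Il1a, and of all pairs of members only Il1rn and Il1r1 lay closer together over the 3 log2 fold changes than Il1a and Il1b (Euclidean distances of 1.03 and 1.66).

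Il18, also activated by caspase-1, was not called in any population. The authors' deposited table had it at 2.13 in Bulge (standard error 1.07, adjusted p = 0.163), 0.88 in EpSCs (standard error 0.44, adjusted p = 0.0987) and −0.14 in Germ (standard error 0.81, adjusted p = 0.917). Its unadjusted p was under 0.05 in Bulge and EpSCs (0.046 and 0.0478). Those intervals ran from 0.038 to 4.21 and from 0.0085 to 1.74.

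Il33, a nuclear alarmin of barrier cells, fell in both Bulge and EpSCs, and was the only member called in more than 1 population. The authors' deposited table had it 6.62-fold lower in Bulge (−2.73, standard error 0.79, adjusted p = 0.0159) and 3.27-fold lower in EpSCs (−1.71, standard error 0.39, adjusted p = 0.000271). The Germ value in the authors' deposited table was 0.43 (standard error 0.33, adjusted p = 0.372). Its Germ interval, −0.22 to 1.09, did not reach the values of the other populations.

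Tslp, the alarmin that acts on dendritic cells and other leukocytes, fell in Bulge. There the authors' deposited table had it 9.18-fold lower (−3.20, standard error 0.88, adjusted p = 0.0128), and 262 genes had a smaller log2 fold change. The authors' deposited table had Germ at −0.91 (standard error 0.52, adjusted p = 0.244) and EpSCs at −0.047 (standard error 0.30, adjusted p = 0.914). The EpSCs interval of −0.64 to 0.54 lay above the whole Bulge interval of −4.93 to −1.47.

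The 2 members that restrain interleukin-1 fell in EpSCs, where 20.0% of all genes were called lower. Inhibitory genes outside the set went both ways there in the authors' deposited table. Irak3, an inhibitory IRAK, rose (1.25, adjusted p = 0.000232), and Sigirr, a negative regulator of the family's receptors, fell (−1.40, adjusted p = 0.0246). Il1r2, the decoy receptor, was 13.5-fold lower in the authors' deposited table (−3.76, standard error 0.78, adjusted p = 7.53e-05), with 244 genes at a smaller log2 fold change. The authors' deposited table had Il1rn, the receptor antagonist, 2.08-fold lower (−1.05, standard error 0.27, adjusted p = 0.00115). In Bulge neither was called: the authors' deposited table had Il1r2 at −1.58 (standard error 0.83, adjusted p = 0.182) and Il1rn at 0.49 (standard error 0.54, adjusted p = 0.563). In Germ the authors' deposited table had Il1r2 at 0.91 with a standard error of 2.33 and Il1rn at −0.20 with a standard error of 0.51 (adjusted p = 0.804 for each). The Germ value of Il1r2 had an interval from −3.64 to 5.47, too wide to place it.

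Of the signalling receptor chains, Il1rap was called in Bulge and Il1r1 in no population. Il1rap, the accessory chain, rose 2.43-fold in Bulge in the authors' deposited table (1.28, standard error 0.43, adjusted p = 0.0397). Its Germ value in the authors' deposited table was higher, 1.63 (standard error 0.53), and missed the threshold (p = 0.00198 before and 0.071 after adjustment), and its EpSCs value was 0.048 (standard error 0.17, adjusted p = 0.842). Il1r1, the signalling receptor, lay between −0.097 and 0.22 in the 3 populations of the authors' deposited table, with adjusted p from 0.714 to 0.839. The intervals of Il1r1 reached at most 1.91 times the control level (Bulge) and at least 0.710 times in Bulge and 0.711 times in EpSCs.

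Whether an effect differed between populations was tested for the 9 members in all 3 pairs of populations, 27 differences, with errors rebuilt from the authors' p-values and p adjusted by Benjamini-Hochberg over all genes. The test is an approximation that takes the libraries as independent, and on simulated data its calls held a larger false share than the threshold allows. It called 4 of the 27, namely 1 of 9 for EpSCs against Bulge (10.4% of all genes), 2 of 9 for EpSCs against Germ (12.2%) and 1 of 9 for Germ against Bulge (5.99%). The effect on Il33 was lower in EpSCs than in Germ by 2.15 on the log2 scale (first minus second −2.15, standard error 0.51, adjusted p = 0.00127). It was also lower in Bulge than in Germ (Germ minus Bulge 3.16, standard error 0.86, adjusted p = 0.0121). Between EpSCs and Bulge the Il33 effects were not shown to differ (1.01, interval −0.71 to 2.74, adjusted p = 0.48). The effect on Tslp differed between EpSCs and Bulge (3.15, standard error 0.93, adjusted p = 0.0153), and that on Il1rap between EpSCs and Germ (−1.58, standard error 0.55, adjusted p = 0.0395). With the stricter Benjamini-Yekutieli adjustment, of these 4 calls only that of Il33 between EpSCs and Germ was kept.

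The other differences were not called. For EpSCs minus Bulge the estimate was −6.31 for Il1b (standard error 2.38, adjusted p = 0.0642), −4.55 for Il1a (standard error 1.84, adjusted p = 0.0881) and −1.55 for Il1rn (standard error 0.61, adjusted p = 0.0765). The Il1r2 effect, called in EpSCs alone, was not shown to differ from that in Bulge (−2.17, adjusted p = 0.206) or Germ (−4.67, adjusted p = 0.216).

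**Figure D2:**
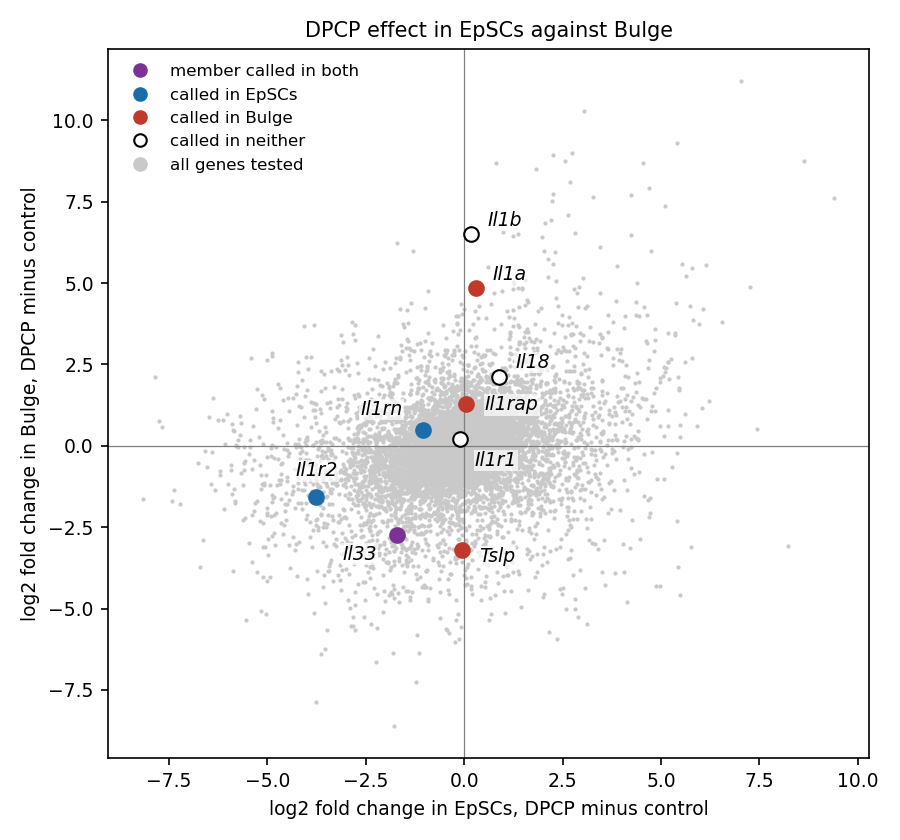
Log2 fold change (DPCP minus control) in EpSCs (x axis) against Bulge (y axis) in the authors' deposited table, with all 13816 genes as grey dots and the 9 members named. Il33 is the only member called in both; Il1a, Il1b and Tslp lie near 0 in EpSCs and far from 0 in Bulge.

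The members are spread over several loci (GENCODE M21, GRCm38). Il1a (chromosome 2, 129299610 to 129309972) and Il1b (chromosome 2, 129364570 to 129371139) are neighbours 54.6 kb apart, and Il1rn lies elsewhere on chromosome 2 (24336853 to 24351494) beside the interleukin-36 genes. Il1r2 (40074079 to 40125231) and Il1r1 (40225080 to 40317257) lie in the receptor cluster of chromosome 1, and Il1rap is on chromosome 16 (26581704 to 26730117). Il33 is on chromosome 19 (29925114 to 29960718), Il18 on chromosome 9 (50554827 to 50581840) and Tslp on chromosome 18. Annotated genes on the opposite strand overlap 6 of the 9 members, all but Il33, Il1rn and Il1r1, and whether counting used strand is not given in the sources used here, so reads of those pairs may be mixed. Annotated genes on the same strand overlap Il1r1 and Il1r2, and counting by strand would not separate those.

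Neighbours in the clusters did not move as a block. In EpSCs the authors' deposited table had Il1r2 at −3.76 and Il1r1, 99.8 kb away, at −0.097. In the authors' deposited table the next receptor gene, Il1rl2 (the interleukin-36 receptor), 7.4 kb beyond Il1r1, rose in EpSCs (0.63, adjusted p = 0.00488) and in Bulge (1.78, adjusted p = 0.0399). Il18r1, an interleukin-18 receptor chain further along, rose in EpSCs of the authors' deposited table too (1.99, adjusted p = 0.000125). In the ligand cluster the authors' deposited table had Il1f8 (interleukin-36 beta) higher in EpSCs (1.83, adjusted p = 0.0167), while Il1rn was lower. Il1a and Il1b stood at 0.30 and 0.18 in EpSCs, at 2.41 and 2.59 in Germ and, further apart, at 4.85 and 6.49 in Bulge.

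**Figure D3:**
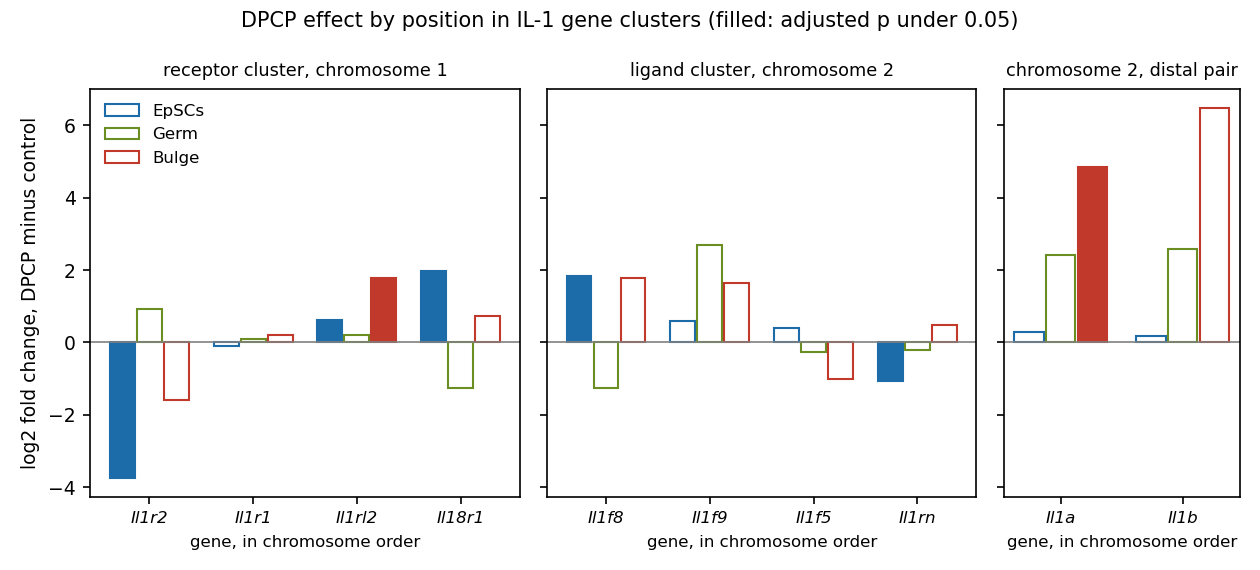
Log2 fold change (y axis, DPCP minus control, from the authors' deposited table) of the tested genes of the receptor cluster and of 2 ligand loci, in chromosome order (x axis), in EpSCs, Germ and Bulge; filled bars have an adjusted p under 0.05. Il1r2 is the only bar below −2, while Il1a and Il1b have their highest bars in Bulge.

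The rest of the pathway was read from 5 lists, whose called counts stand against 39.9% of all genes called in EpSCs, 10.3% in Bulge and 1.06% in Germ. Counts at an unadjusted p under 0.05 stand against 48.9%, 29.2% and 25.7% of all genes. Of 4 other ligands and antagonists tested, out of 7 listed, 2 rose in EpSCs, Il1f8 and Il18bp, the soluble interleukin-18 binding protein (the authors' deposited table gave 2.72, adjusted p = 0.00334), and 0 in Bulge or Germ by limma. The medians of this list were 1.21 (EpSCs), 1.36 (Bulge) and 0.71 (Germ). The unadjusted p of its 4 members was above 0.05 in Bulge and Germ. Of 6 other receptors tested, out of 10 listed, 2 rose and 1 fell in EpSCs, 1 rose in Bulge and 0 were called in Germ. The gene that fell was Sigirr, a negative regulator of the family's receptors (the authors' deposited table gave −1.40, adjusted p = 0.0246). In Germ, 3 of these 6 receptors had an unadjusted p under 0.05.

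Of the 17 signalling genes, 3 rose and 1 fell in EpSCs, 1 rose in Bulge and 0 were called in Germ by limma. By adjusted p, the EpSCs share of this list was below that of all genes. In Bulge, 1 call was too few to compare. An unadjusted p under 0.05 was found for 9 of the 17 in EpSCs and 7 in Bulge. These shares were not below those of all genes (48.9% and 29.2%). In EpSCs the authors' deposited table had Map3k7, the kinase TAK1, at 1.29 (adjusted p = 6.61e-05), Irak3, an inhibitory IRAK, at 1.25 (adjusted p = 0.000232), Irak4, the first kinase of the pathway, at 1.13 (adjusted p = 0.00217) and Mapk8 at −0.96 (adjusted p = 0.0242). The authors' deposited table also had Irak4 higher in Bulge (adjusted p = 0.0275) and the adaptor gene Myd88 at 1.21 there (adjusted p = 0.0518). In Germ, 4 of the 17 had an unadjusted p under 0.05, beside 25.7% of all genes. The list's median was 0.15 for EpSCs, 0.44 for Bulge and 0.24 for Germ. Of the 9 genes of processing and release tested, out of 15 listed, 3 rose and 3 fell in EpSCs and 0 were called by limma in Bulge or Germ, where 3 and 4 had an unadjusted p under 0.05. Casp1, a caspase that matures interleukin-1 beta, was in the authors' deposited table higher in EpSCs (1.44, adjusted p = 0.000788) and not called in Bulge (−0.57, adjusted p = 0.199). Capn2, a calpain, rose in EpSCs (2.39, adjusted p = 1.85e-05), as did Casp8, an apoptotic caspase (1.17, adjusted p = 0.000519), and the inflammasome gene family member Nlrp10 fell there (−1.43, adjusted p = 0.000208) in the authors' deposited table.

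Of 16 genes that interleukin-1 is known to induce in epithelium, out of 22 listed, 4 rose and 0 fell in Bulge, 5 rose and 6 fell in EpSCs, and 1 rose in Germ. Those that rose in Bulge were the antimicrobial genes S100a8, S100a9, Lcn2 and Defb14, at 8.93, 8.74, 4.88 and 8.69 in the authors' deposited table (adjusted p from 0.0269 to 0.0489). The 4 with the smallest adjusted p in EpSCs were Ptgs2 (the inducible cyclooxygenase), at −3.23 in the authors' deposited table, Nfkbiz (an atypical IkB protein) at −1.98, Defb14 at 4.54 and Lcn2 at 7.25 (adjusted p from 0.000147 to 0.000505). The list's median was 1.23 in Bulge, 0.75 in Germ and −0.29 in EpSCs. These genes answer many other signals too.

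**Figure D4:**
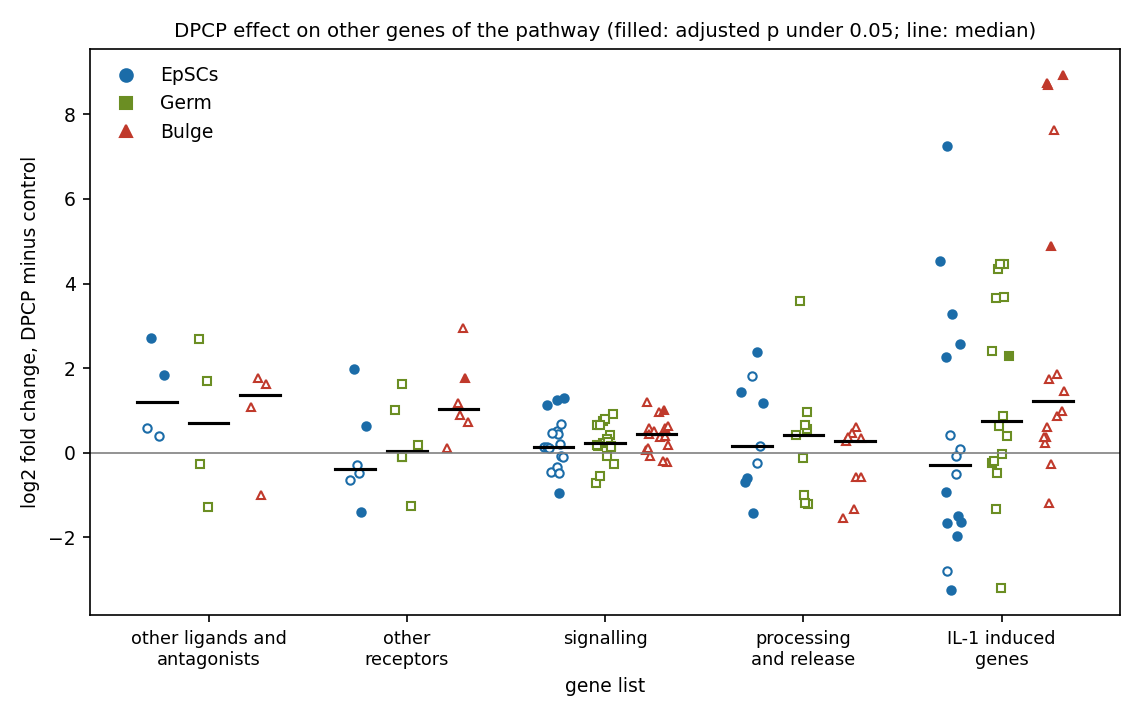
Log2 fold change (y axis, DPCP minus control, from the authors' deposited table) of the genes of 5 lists (x axis) in EpSCs (circles), Germ (squares) and Bulge (triangles); each symbol is a gene, filled where adjusted p is under 0.05, and the black line is the list's median. In Bulge, 4 of 16 induced genes are filled, all above 4, while EpSCs has filled symbols on both sides of 0.

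Leukocytes, fibroblasts and endothelial cells also express several members, so their markers were read beside these results. All counts of called markers stand against 39.9% of all genes called in EpSCs (19.9% higher and 20.0% lower), 10.3% in Bulge and 1.06% in Germ. Marker counts at an unadjusted p under 0.05 stand against 48.9%, 29.2% and 25.7% of all genes. In Bulge, where Il1a rose, 0 of 5 pan-leukocyte markers and 0 of 7 macrophage and dendritic markers were called by limma, with medians of 0.94 and 1.44 and with 2 and 3 members at an unadjusted p under 0.05. Those under 0.05 were Lcp1, Itgam and Cd14, which were higher, and Coro1a and Cd68, which were lower. The authors' deposited table had Itgam at 3.50 (adjusted p = 0.0588), Coro1a at −1.16 (adjusted p = 0.112) and Cd68 at −0.92 (adjusted p = 0.166). It had Spp1 at 6.44 (adjusted p = 0.173), Ptprc at 0.078 and Adgre1 at 0.013. Of 5 neutrophil markers tested, 3 rose in Bulge, S100a8, S100a9 and Cxcr2 (4.02 in the authors' deposited table, adjusted p = 0.0377), of which S100a8 and S100a9 are also made by inflamed keratinocytes. Where Il33 fell, in Bulge and EpSCs, 0 of 7 endothelial markers were called by limma (3 in Bulge and 1 in EpSCs at an unadjusted p under 0.05), but markers of other skin cells were. In Bulge, where Tslp fell as well, 3 of 7 sebocyte markers fell and 1 rose, 2 of 6 interfollicular or upper follicle markers fell and 1 rose, 2 of 4 germ markers fell and 1 of 8 melanocyte markers fell. Among them were Awat2 (a sebocyte enzyme) at −4.10, Krt1 (a keratin of differentiating epidermis) at −2.96 and Lef1 at −2.76 in the authors' deposited table, with an adjusted p of 0.0123, 0.0371 and 0.041. Fibroblast markers had 0 of 4 called in Bulge, also at an unadjusted p under 0.05, and 2 of 4, both lower, in EpSCs. In EpSCs, where Il1r2 and Il1rn fell, 1 of 5 pan-leukocyte markers was called, Ptprc, at −3.64 in the authors' deposited table with an adjusted p of 0.00176. There 2 of 7 macrophage and dendritic markers fell, 3 of 5 neutrophil markers rose and 1 fell, and 5 of 7 keratinocyte markers fell and 1 rose. The macrophage and dendritic list went both ways in EpSCs, with a median of 0.98. Its Cd68, Itgam and Cd14 stood higher, at 1.67, 1.62 and 0.98, with an unadjusted p under 0.05 but no call. Also in EpSCs, 4 of 7 bulge markers rose and 1 fell, 3 of 6 interfollicular or upper follicle markers rose and 3 fell, and 1 of 4 germ markers rose and 2 fell. Sebocyte markers rose in 3 of 7, Langerhans markers in 3 of 4 and melanocyte markers in 1 of 8, and so did Kit, the 1 mast cell marker tested. Krt79, an upper follicle keratin, stood at 6.04 there in the authors' deposited table, with an adjusted p of 1.28e-07. In Germ, 2 of 7 endothelial, 7 of 8 melanocyte and 1 of 7 sebocyte markers rose, and 1 of 6 interfollicular or upper follicle markers fell. There 6 of 7 endothelial markers (median 4.60) and 3 of 4 fibroblast markers (median 3.48, 0 called) had an unadjusted p under 0.05. Of the pan-leukocyte and the macrophage and dendritic markers in Germ, 0 of 5 and 0 of 7 did (medians 1.93 and 3.09). Levels per sample were not used, and the part of other cells, or of a changed make-up of the sorted populations, in the values of the members was not tested.

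By Euclidean distance over the 3 log2 fold changes, the genes nearest to Il33 were Synpo2, Pdgfc and Ces2f (0.37 to 0.41), and those nearest to Tslp were Spata24, Vmn1r4 and Acaa1b (0.24 to 0.43). Nearest to Il1a were Aldh3b3, Pmepa1 and Lipn (0.60 to 0.65), and nearest to Il1b were Klk10, Prss27 and Bcl3, at larger distances (0.87 to 1.55). Klk10 stood at 6.58 in Bulge in the authors' deposited table (adjusted p = 0.00375). These likenesses rest on 3 values a gene.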

How the data were processed

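RNA of 18 sorted samples was sequenced, 3 in each of 6 groups taken from the sample titles. Libraries were stranded and poly(A)-selected from trypsin-digested skin, per the labels' protocols. The submitters' processing notes name STAR 2.7.6a, limma 3.60.6, cutadapt 3.5 and FastQC 0.11.9, with builds GRCm38 and mm10. How reads were counted, filtered, normalized and modelled is not given in the sources used here. Of 48 columns, 36 held library values whose names matched no label and were not used, so the planned fits on them were replaced by the authors' comparisons. The authors deposited, per gene and population, a log2 fold change with its p-value, raw and adjusted. The adjusted values equalled Benjamini-Hochberg over 13816 genes (largest difference 2.0e-14). A fold change of a low gene cannot be bounded, since no floor is stated.

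Standard errors were rebuilt as the log2 fold change over the normal score of its p-value (scipy 1.17.1), and differences between populations were divided by the combined error. This calculation was tested on simulated data, where its calls held a larger false share than the threshold allows. Members were the listed symbols, and up to 4 genes of each pathway list were named per population by smallest adjusted p. Cell type markers given with values were chosen after their values were seen. Members and lists were chosen with earlier results of these data known, and so was the error model. Interleukin-36 genes were matched by their older symbols. Promoters of 8 of the 9 members were searched, and Tslp's was left out. Gene positions came from GENCODE M21, whose versioned IDs held 13388 of the 13816 deposited IDs and all 9 members.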

Additional observations from a re-analysis of the deposited data

Results flagged for a closer look

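Effects that differed between populations, by the test of the difference itself, were found for 3 members. By pair, 1 of 9 members was called for EpSCs against Bulge, 2 for EpSCs against Germ and 1 for Germ against Bulge. Of all genes, 10.4%, 12.2% and 5.99% were called, so the EpSCs against Bulge share was near that of all genes. Whether the members exceed these shares was not tested. Tslp was lower after DPCP in Bulge and near 0 in EpSCs (EpSCs minus Bulge 3.15, adjusted p = 0.0153). Il33 was lower in EpSCs and Bulge and not in Germ (EpSCs minus Germ −2.15, adjusted p = 0.00127, and Germ minus Bulge 3.16, adjusted p = 0.0121). Il1rap stood at 1.63 in Germ and 0.048 in EpSCs in the authors' deposited table (EpSCs minus Germ −1.58, adjusted p = 0.0395). With Benjamini-Yekutieli adjustment only the Il33 difference between EpSCs and Germ was still called, and on simulated data calls of this test held a larger false share than the threshold allows.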

How the results depend on the processing

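No direction changed, since each alternative kept the fold changes and altered the adjustment, the threshold or the error. The 3 EpSCs calls (Il33, Il1rn, Il1r2) passed at an adjusted p under 0.01 and with Benjamini-Yekutieli adjustment. The 4 Bulge calls (Il33, Tslp, Il1a, Il1rap) became 0 under each of these. At an adjusted p under 0.10, Germ had 1 call, Il1rap, and Il1b joined in Bulge and Il18 in EpSCs. For differences between populations, EpSCs against Bulge had 5 calls at 0.10, 0 with Benjamini-Yekutieli and 6 with a t score on 4 degrees of freedom, which added Il33, Il1a, Il1b, Il1r2 and Il1rap to Tslp. EpSCs against Germ had 1 with Benjamini-Yekutieli (Il33), and Germ against Bulge 0 with Benjamini-Yekutieli and 2 with the t score.

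Over all genes, the called count was 3313 in EpSCs, 14 in Germ and 212 in Bulge at 0.01, 923 in Germ and 2689 in Bulge at 0.10, and 2590, 0 and 89 with Benjamini-Yekutieli. With an absolute log2 fold change of at least 1 it was 3073 in EpSCs. Differences over all genes numbered 2314 (EpSCs against Bulge) and 1359 (Germ against Bulge) at 0.10, 411, 603 and 95 (EpSCs against Bulge, EpSCs against Germ, Germ against Bulge) with Benjamini-Yekutieli, and 2761 and 1543 (EpSCs against Bulge, Germ against Bulge) with the t score. No paired analysis was possible because the library columns matched no sample label. For the same reason the fits on TPM, with other pseudocounts, filters or a library left out, were not run, and neither were the comparisons of control populations. Depth is unknown, so how it limits low genes cannot be given.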

Other observations

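The tested genes that flank the members did not share their changes in several cases. Uhrf2 and Ranbp6, on either side of Il33, were not called in any population, with log2 fold changes from −0.65 to 0.45 in the authors' deposited table. The lowest was Ranbp6 in Bulge, where Il33 fell too, and its adjusted p of 0.0623 was just past the threshold. Ckap2l, 2.4 kb from Il1a, stood at −0.77 in Bulge in the authors' deposited table (adjusted p = 0.155), where Il1a was at 4.85. Sirpa, an inhibitory receptor gene 221.7 kb beyond Il1b, fell in EpSCs in the authors' deposited table (−1.74, adjusted p = 0.00114) and was not called in Bulge (−0.26, adjusted p = 0.673). Cldn1, a tight junction gene 209.9 kb from Il1rap, rose in Bulge at a log2 fold change near that of Il1rap (1.26, adjusted p = 0.0368) and in EpSCs, where Il1rap did not (2.10, adjusted p = 5.47e-06), in the authors' deposited table. Map4k4, 47.8 kb from Il1r2, rose in Bulge (2.11, adjusted p = 0.0141) and EpSCs (0.59, adjusted p = 0.019) in the authors' deposited table, while Il1r2 fell in EpSCs.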
